A study of Mus musculus with 18 samples.

Results

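Insulin-like growth factor 1 (Igf1), its receptor Igf1r, the acid-labile subunit Igfals and the binding proteins Igfbp1 to Igfbp7 were measured by RNA sequencing in mouse liver tumors and in SB1 tumor cells. These 10 genes were taken by symbol from a table of 43346 genes, and all 10 passed the filter on low counts. The 12 tumors fell into 4 groups of 3. All were raised with myr-AKT, an activated form of the kinase AKT, together with a mutant of the transcriptional coactivator YAP. YAP-S carried S127A, and YAP-SY carried S127A and Y357F. By label, each model gave tumors called cholangiocarcinoma (CCA) and tumors called mixed. SB1 is a cell line, labelled with the genotype YAP-S CCA, of which 3 samples were read; what separates those samples is not stated. The other line of the series, SY1, is not analysed here. RNA came from tumor nodules in bulk, so that fewer cells of a type and less RNA per cell cannot be told apart. The tumors carried animal-style numbers (3, 4 and 5 for YAP-S CCA; 2, 7 and 9 for YAP-S mixed; 1, 6 and 8 for YAP-SY CCA; 3, 5 and 9 for YAP-SY mixed). The labels do not say that each came from a separate mouse, and p-values measure only the spread between these samples. YAP-SY CCA tumor 8 and YAP-SY mixed tumor 3 were deposited under another name prefix (Mut1) than the other YAP-SY tumors (Mutant). What that prefix marks is not stated, and the fit has no term for it. Age, strain and the means of delivering the transgenes are not given in the sources used here.

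In the liver, growth hormone acts through its receptor, the kinase JAK2 and the factor STAT5 to drive Igf1 in hepatocytes, which supply most of the circulating hormone. IGF1 activates the receptor tyrosine kinase IGF1R, which adult hepatocytes carry at low levels. Most IGF1 in blood travels in a complex with IGFBP3 or IGFBP5 and the acid-labile subunit, while the other binding proteins hold the ligand in smaller complexes. IGFBP7 binds IGFs only weakly and is better known from vessels and stroma.

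Promoter sequences are shown for 3 binding proteins. Igfbp1 is shown because its promoter holds the classical insulin response element, through which AKT silences it by way of FOXO factors, and all of these tumors were raised with active AKT. Igfbp3 and Igfbp7 are shown because they fell in YAP-SY CCA tumors. The sequences are from RefSeq (GRCm38.p6, the assembly called mm10), and all 10 members were matched there. Each run reads 5′ to 3′ on the strand of the gene and ends at the base before its start, except that 5 bases lying in an exon were left off the end for Igfbp1. Capitals mark the motif matches named after the sequences.
Igfbp1, chr11:7197537-7197781, plus strand: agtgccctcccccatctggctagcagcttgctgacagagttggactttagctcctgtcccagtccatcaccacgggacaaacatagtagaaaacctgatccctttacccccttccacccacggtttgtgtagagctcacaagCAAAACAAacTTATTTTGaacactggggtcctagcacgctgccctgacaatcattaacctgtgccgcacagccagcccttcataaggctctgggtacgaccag
Igfbp3, chr11:7213924-7214173, minus strand: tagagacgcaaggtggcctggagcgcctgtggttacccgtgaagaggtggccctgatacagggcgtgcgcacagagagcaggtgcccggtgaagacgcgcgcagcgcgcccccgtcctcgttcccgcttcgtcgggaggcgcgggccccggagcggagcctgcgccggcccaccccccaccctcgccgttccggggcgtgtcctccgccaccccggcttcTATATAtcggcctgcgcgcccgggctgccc
Igfbp7, chr5:77408046-77408295, minus strand: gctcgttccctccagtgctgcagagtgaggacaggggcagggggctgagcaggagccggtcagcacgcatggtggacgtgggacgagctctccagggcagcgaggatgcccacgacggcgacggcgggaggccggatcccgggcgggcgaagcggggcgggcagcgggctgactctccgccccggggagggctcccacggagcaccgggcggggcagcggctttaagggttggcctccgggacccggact

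The search covered the 250 bases before each start on both strands. In the Igfbp1 promoter, CAAAACAA lay at bases -108 to -101 from the start, and CAAAATAA lay at -98 to -91 on the other strand, where it reads TTATTTTG. Together these form the paired insulin response element. Of 32851 mouse promoters, 2.21% held CAAAACAA and 1.49% held CAAAATAA. TATATA lay at -30 to -25 in the Igfbp3 promoter and in 5.25% of all promoters. The TEAD motif CATTCC, the usual docking site of YAP's partners, was in 12.6% of promoters; among the members it was matched in windows of Igfals and Igfbp5, and not in the sequences printed. The STAT5 motif TTCNNNGAA, in 7.02% of promoters, was matched in 2 windows of Igfals, and the forkhead motif GTAAACAA, in 1.07%, in no member's window. The Igf1 window (chr10:87860861-87861110) lay inside the gene's own span, listed from base 87858265, and in its exons. Bases before that listed start were thus not searched for Igf1. The windows of Igfals also overlapped its exons. The Igfbp3 and Igfbp7 windows were rich in G and C, at 73.2% and 74%, with 32 and 26 CpG pairs, against 53.2% and 5 for Igfbp1 and medians of 52.4% and 6 over all promoters. A match is a run of letters only and says nothing of binding in these tumors.

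Tumor libraries held 30656499 to 130035221 counts and SB1 libraries 25341968 to 30541185. Levels are given as CPM, the count scaled to the library's total after TMM scaling of the libraries. Differences between groups were tested with edgeR's quasi-likelihood test in a fit of all 12 tumors, with Benjamini-Hochberg adjustment over 18318 genes and a threshold of 0.05. Counts were found for 18207 genes in YAP-SY CCA tumor 1 and for 20440 to 24391 genes in each other tumor. Summed hepatocyte markers ran from 47200 to 58400 CPM in YAP-S CCA, 79400 to 86100 in YAP-S mixed, 137000 to 158000 in YAP-SY CCA and 84900 to 112000 in YAP-SY mixed tumors. Summed fibroblast and stellate cell markers ran the other way between the CCA groups, from 1950 to 2450 CPM in YAP-S and 514 to 702 in YAP-SY, with 869 to 1120 and 676 to 1040 in the mixed groups. Cholangiocyte markers summed to 7620 to 10900 CPM with YAP-S and to 2780 to 4230 with YAP-SY in CCA tumors. In mixed tumors they summed to 9530 to 10300 CPM with YAP-S and 4350 to 16500 with YAP-SY. Most of the sum in CCA tumors was Spp1, with means of 8490 CPM in YAP-S and 3270 in YAP-SY, where Krt19 averaged 60.3 and 6.51 CPM. Cldn4 was at 0 in YAP-SY CCA tumor 6. Tumors labelled YAP-SY CCA thus held less RNA of the bile duct marker list and more of the hepatocyte list than those labelled YAP-S CCA.

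Igf1 rose and both Igfbp3 and Igfbp7 fell in YAP-SY CCA tumors compared with YAP-S CCA tumors, and Igfbp4 rose by less. These were 4 of the 10 members, 2 higher and 2 lower. Over all genes tested, 39.1% were called in this comparison, 18.3% higher and 20.8% lower, so that the members' share was near the background. The median log2 fold change was -0.63 over the members and -0.001 over all genes. All 4 called members had groups without overlap, as did 52.6% of all genes.

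Igf1, the growth hormone-driven ligand, measured 236, 276 and 231 CPM (YAP-S CCA tumors 3, 4 and 5) against 564, 725 and 605 CPM (YAP-SY CCA tumors 1, 6 and 8). The lowest YAP-SY CCA tumor was above every tumor of the other groups. The mean rose from 248 ± 24.5 to 631 ± 83.6 CPM (SD, n = 3 each). This was a log2 fold change of 1.35 (SE 0.15, edgeR quasi-likelihood adjusted p = 0.000124), or 2.55-fold, higher in 3 of 3 tumors. With library size alone in place of TMM scaling, the change was 0.78 (adjusted p = 0.000353), since that scaling moved the median of all genes to -0.56. The mixed tumors lay between the CCA groups, at 403, 352 and 357 CPM in YAP-S tumors 2, 7 and 9 and at 482, 402 and 386 in YAP-SY tumors 3, 5 and 9. These 2 mixed groups overlapped, with a log2 difference of 0.19 (SE 0.15, 95% interval -0.13 to 0.51, edgeR adjusted p = 0.999).

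Igfbp3, the main carrier of circulating IGF1, was in reverse order. The YAP-S CCA tumors measured 128, 89.9 and 99.4 CPM, the YAP-SY CCA tumors 25.1, 32.6 and 36 CPM. Each YAP-SY CCA tumor was below each of the other 9 tumors. The mean fell from 106 ± 19.9 to 31.2 ± 5.58 CPM (SD, n = 3 each). The gene was 3.39-fold lower, a log2 fold change of -1.76 (SE 0.17, edgeR quasi-likelihood adjusted p = 9.84e-05). The mixed tumors again lay between, at 46.3, 54.7 and 50.3 CPM in YAP-S and 45.4, 43.3 and 55.1 CPM in YAP-SY, with no separation of the models.

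Igfbp7, a secreted protein of vessels and stroma, followed Igfbp3. It measured 285, 289 and 250 CPM under YAP-S and 102, 106 and 118 CPM under YAP-SY in CCA, with a gap between the groups larger than either group's range. The mean fell from 275 ± 21.4 to 109 ± 8.47 CPM (SD, n = 3 each). This was 2.53-fold lower, a log2 fold change of -1.34 (SE 0.13, edgeR quasi-likelihood adjusted p = 9.84e-05). In mixed tumors Igfbp7 stood at 159, 193 and 202 CPM with YAP-S and at 151, 168 and 164 CPM with YAP-SY, and those groups overlapped.

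Igfbp4 encodes a protein that restrains IGF action until it is cleaved by the protease PAPP-A. In CCA it measured 449, 395 and 331 CPM with YAP-S and 561, 637 and 711 CPM with YAP-SY. The groups did not overlap, and the log2 fold change was 0.70 (SE 0.20, edgeR quasi-likelihood adjusted p = 0.0141), 1.62-fold higher. This call was less secure than the other 3: it ended without YAP-S CCA tumor 5 (0.58, adjusted p = 0.0701) and with library size alone (0.14, adjusted p = 0.543). In mixed tumors Igfbp4 stood at 489, 469 and 473 CPM with YAP-S and at 479, 337 and 597 CPM with YAP-SY, where tumors 5 and 9 lay on either side of the whole YAP-S group.

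In the CCA comparison 8 of 10 hepatocyte markers were higher in YAP-SY, with a median log2 fold change of 1.29, beside the rise of Igf1. Of 10 fibroblast and stellate cell markers 7 were lower, with a median of -1.78, as were 7 of 9 cholangiocyte markers, with a median of -2. Both stood beside the falls of Igfbp3 and Igfbp7. Over all genes tested, 18.3% were called higher and 20.8% lower in this comparison, which the marker counts are to be read against. Endothelial markers were split, with 2 higher and 2 lower of 8, and summed to 292 to 410 CPM with YAP-S and 390 to 492 with YAP-SY. Macrophage and Kupffer cell markers were 3 higher and 1 lower of 7, with summed ranges of 299 to 384 and 293 to 402 CPM. T cell markers were lower in 3 of 4, with a median of -1.86, and B cell markers called in 0 of 3. The part of these marker changes in the members' changes was not tested.

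**Figure D1:**
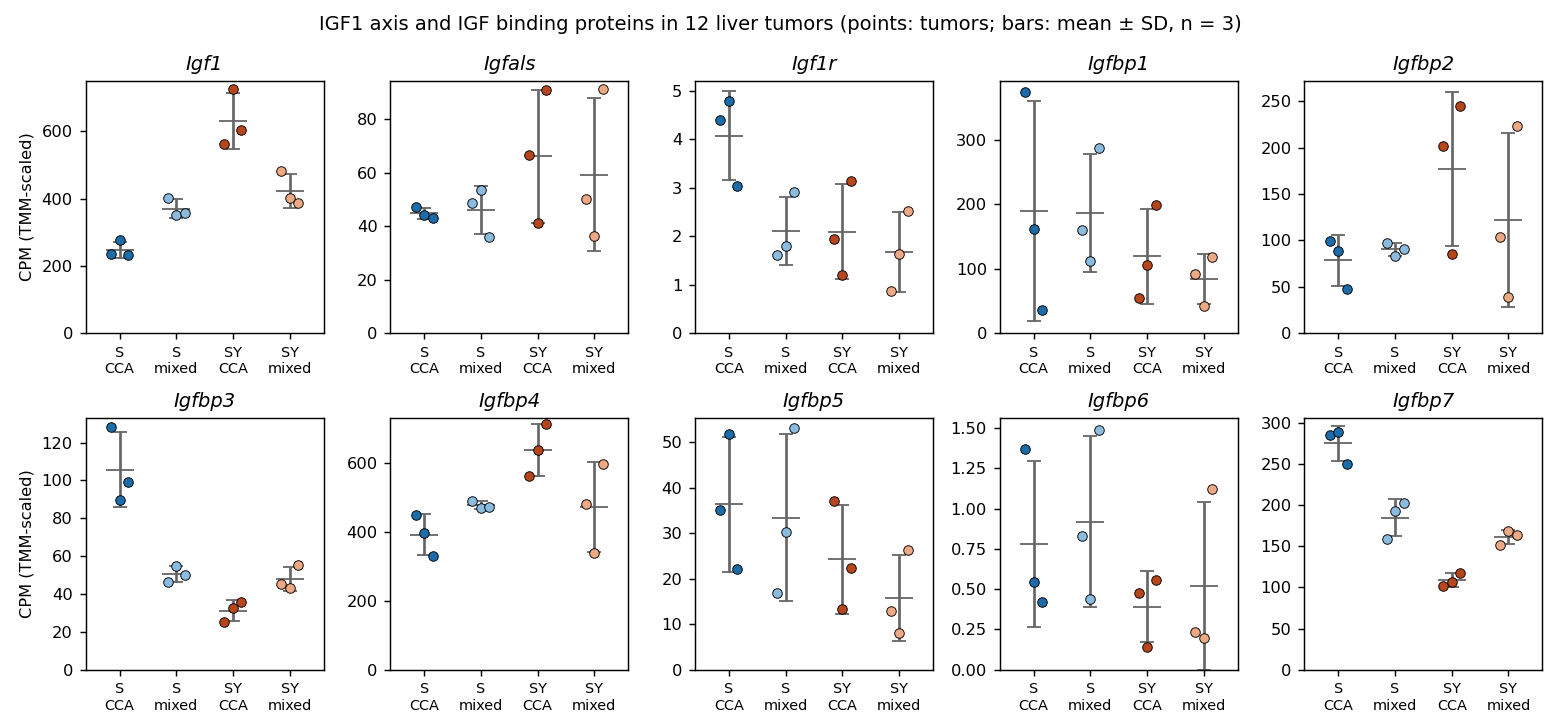
TMM-scaled CPM (y axis, from 0, own scale per gene) of the 10 members in the 4 tumor groups (x axis); points are tumors and bars the mean ± SD, n = 3. Igf1 is highest in YAP-SY CCA tumors at 564 to 725 CPM, where Igfbp3 and Igfbp7 are lowest at 25.1 to 36 and 102 to 118 CPM.

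The other 6 members were not called in CCA tumors. Igfals, the hepatocyte-made partner of IGF1 and IGFBP3 in blood, stood at 47.1, 44.3 and 42.9 CPM with YAP-S and at 66.4, 41 and 90.7 CPM with YAP-SY. YAP-SY CCA tumor 6, the highest for Igf1, was the lowest of its group for Igfals and below all 3 YAP-S CCA tumors. The log2 difference was 0.56 (95% interval -0.13 to 1.25, edgeR quasi-likelihood adjusted p = 0.183). In mixed tumors Igfals stood at 48.5, 53.5 and 36 CPM with YAP-S and at 50.2, 36.2 and 91.2 CPM with YAP-SY.

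Igf1r, the receptor, was scarce in tumors. CCA tumors measured 4.39, 4.79 and 3.04 CPM with YAP-S and 1.93, 1.2 and 3.14 with YAP-SY, and mixed tumors 1.61, 1.79 and 2.91 with YAP-S and 0.865, 1.63 and 2.51 with YAP-SY. The CCA groups overlapped through YAP-SY CCA tumor 8 alone. The log2 difference in CCA was -0.97 (95% interval -1.88 to -0.05, edgeR quasi-likelihood adjusted p = 0.0862), and without tumor 8 it was -1.38 and passed (adjusted p = 0.0351).

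Igfbp1, the insulin-suppressed binding protein, varied widely within groups. CCA tumors measured 373, 161 and 35.3 CPM with YAP-S and 53.7, 105 and 199 with YAP-SY, and mixed tumors 160, 111 and 287 with YAP-S and 91.3, 41.2 and 118 with YAP-SY. YAP-S CCA tumors thus held both the highest and the lowest value of the 12 tumors, in tumors 3 and 5. The log2 difference was -0.67 in CCA (95% interval -2.16 to 0.82, edgeR quasi-likelihood adjusted p = 0.465) and -1.15 in mixed tumors (-2.66 to 0.35, adjusted p = 0.999). Without YAP-S CCA tumor 3 the CCA value turned to 0.27, so that 1 tumor set its direction.

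Igfbp2, another hepatocyte binding protein, measured 99.7, 88.4 and 47.3 CPM in CCA with YAP-S, and 202, 84.8 and 245 CPM with YAP-SY. As for Igfals, tumor 6 was the low one of the YAP-SY CCA group. The log2 difference was 1.17 (95% interval 0.05 to 2.29, edgeR quasi-likelihood adjusted p = 0.0894), and 1.51 without tumor 6, which passed (adjusted p = 0.0475). In mixed tumors Igfbp2 stood at 97.5, 83.1 and 90.5 CPM with YAP-S and spread from 38.8 to 223 CPM with YAP-SY, on both sides of the YAP-S group.

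Igfbp5, which like IGFBP3 can carry IGF1 with the acid-labile subunit, measured 35.1, 51.7 and 22.1 CPM in CCA with YAP-S, and 37.1, 13.3 and 22.4 CPM with YAP-SY, with overlap. In mixed tumors it stood at 16.8, 30.3 and 53 CPM with YAP-S and at 12.8, 8.12 and 26.2 CPM with YAP-SY, a log2 difference of -1.08 (95% interval -2.18 to 0.02, edgeR quasi-likelihood adjusted p = 0.999). Igfbp6, the binding protein that prefers IGF2, was near the lower limit of what the filter kept, between 0.14 and 1.49 CPM, or 5 to 144 counts per tumor. Its groups overlapped in every comparison.

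**Figure D2:**
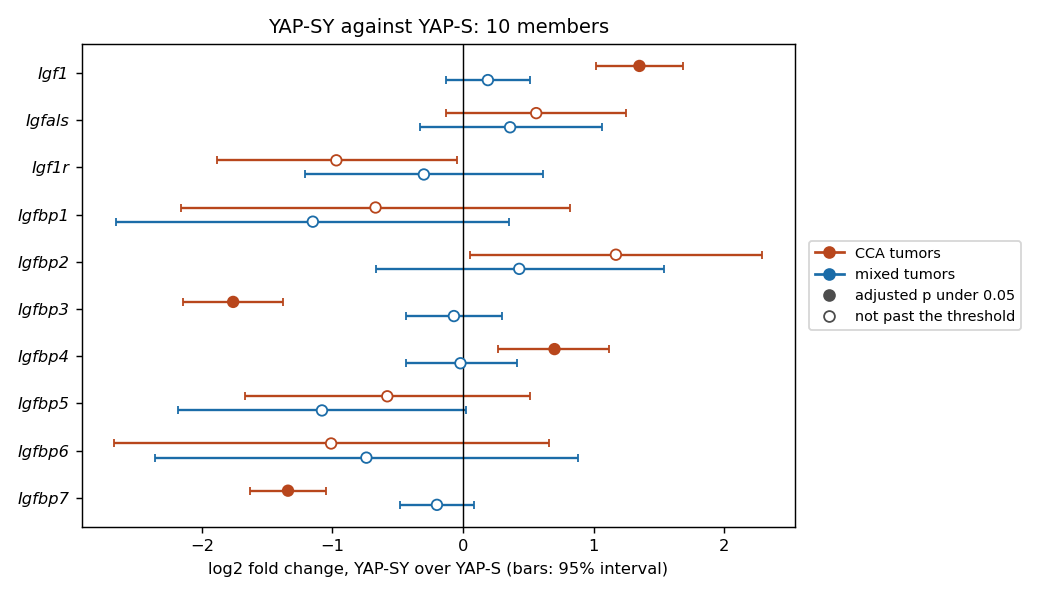
Log2 fold change of YAP-SY over YAP-S (x axis) for each member (y axis) in CCA and mixed tumors; bars are 95% intervals of the fit, and filled points passed an adjusted p of 0.05. In CCA tumors 4 members are filled, Igf1 (1.35), Igfbp3 (-1.76), Igfbp4 (0.70) and Igfbp7 (-1.34), and in mixed tumors none is.

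In mixed tumors YAP-SY and YAP-S were not told apart by any member. With edgeR's quasi-likelihood test 0 of 10 members were called, where the background was 0% of 18318 genes; 551 genes (3.01%) had an unadjusted p under 0.05, none of them a member, and DESeq2 called 4 genes higher and 7 lower. No member had groups without overlap, against 8.35% of all genes. The members' log2 differences ran from -1.15 for Igfbp1 to 0.43 for Igfbp2. For Igf1, Igfbp3, Igfbp4 and Igfbp7 the 95% intervals were -0.13 to 0.51, -0.44 to 0.30, -0.44 to 0.41 and -0.48 to 0.08. None reached that gene's estimate in CCA tumors, which has an error of its own. The difference between histologies is tested below. Hepatocyte and fibroblast markers were called in 0 of 10 each in this comparison.

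The effect of YAP-SY was then compared between histologies by an interaction term, which uses the same 12 tumors as both comparisons. Igf1, Igfbp3 and Igfbp7 passed, 3 of 10 members, 1 higher and 2 lower in CCA than in mixed tumors; the background was 15.2% of genes, 5.02% higher and 10.2% lower. The effect on Igf1 was larger in CCA by 1.16 on the log2 scale (SE 0.21, edgeR quasi-likelihood adjusted p = 0.00653). For Igfbp3 the difference was -1.69 (SE 0.24, adjusted p = 0.00327) and for Igfbp7 -1.14 (SE 0.18, adjusted p = 0.00415). Igfbp4 did not pass, at 0.72 (SE 0.28, adjusted p = 0.0954). With library size alone the difference for Igf1 was 0.65, where the median of all genes was -0.51. Among markers, 5 of 10 hepatocyte genes were higher by the same term. Lower were 6 of 10 fibroblast, 3 of 9 cholangiocyte, 2 of 4 T cell and 1 of 8 endothelial genes.

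Between the histologies within a model, the same 3 genes had differences of opposite sign, although few calls were made. The gap between the YAP-S and the YAP-SY difference is the interaction term itself. The opposite signs are therefore another view of that term, from the same tumors, and not separate evidence. In YAP-S the CCA tumors were lower than mixed tumors for Igf1 (-0.58, adjusted p = 0.0704) and higher for Igfbp3 (1.07, adjusted p = 0.0525) and Igfbp7 (0.57, adjusted p = 0.0587), and edgeR's quasi-likelihood test called 0 of 10 members and 0% of all genes. At an unadjusted p under 0.05 it had 3636 genes (19.8%), and DESeq2 called 1037 higher and 476 lower. Groups did not overlap for 5 members, Igf1, Igf1r, Igfbp3, Igfbp4 and Igfbp7, against 37.8% of all genes. In YAP-SY the CCA tumors were higher for Igf1 (0.58, adjusted p = 0.0577) and lower for Igfbp3 (-0.62, adjusted p = 0.0675) and Igfbp7 (-0.57, SE 0.13, adjusted p = 0.0412). Igfbp7 was the only member called, where 2.9% of genes were called, 2.7% lower, and its call ended without any 1 of the 6 tumors (-0.63 to -0.52, adjusted p = 0.0517 to 0.126) and in a fit of the YAP-SY tumors alone. Groups did not overlap for Igf1, Igfbp3 and Igfbp7, against 20.1% of all genes.

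A list of 22 genes around the members was read from the same fit, of which 21 were tested; Pappa2 fell below the filter. In CCA tumors 9 were called, 3 higher and 6 lower in YAP-SY, against 39.1% of all genes; the median was -0.02 over the list and -0.001 over all genes. In growth hormone signalling only the receptor Ghr, of 6 genes, was called. It measured 258, 287 and 198 CPM with YAP-S, and 549, 913 and 609 CPM with YAP-SY, a log2 fold change of 1.48 (SE 0.25, edgeR quasi-likelihood adjusted p = 0.000919). The groups did not overlap, and tumor 6 was the highest of its group for Ghr as for Igf1. Jak2, Stat5a and Stat5b had log2 differences of -0.07, -0.31 and -0.02, and the STAT5 targets Socs2 and Cish of 0.27 and 0.05, none past the threshold (adjusted p = 0.0818 to 0.962).

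Among other receptors the insulin receptor Insr rose, from 123, 119 and 94.3 CPM with YAP-S to 172, 294 and 226 CPM with YAP-SY (1.04, SE 0.19, edgeR quasi-likelihood adjusted p = 0.00143). Its groups did not overlap. The ligand Igf2 and its clearance receptor Igf2r had differences of 0.32 and -0.11 and were not called. Among adaptors Irs1, which couples both receptors to PI3K, rose (0.80, adjusted p = 0.0466), a call lost without any 1 of 5 tumors, namely YAP-SY CCA 1, 6 and 8 as well as YAP-S CCA 3 and 5 (adjusted p = 0.0619 to 0.172). Grb10, which dampens signalling from these receptors, fell (-0.83, adjusted p = 0.0102), a call lost without YAP-S CCA tumor 4 (-0.60, adjusted p = 0.0523). With library size alone Ghr, Insr and Irs1 stood at 0.913, 0.473 and 0.244, where the last did not pass. Irs2, Shc1, Grb14 and the IGFBP3 receptors Lrp1 and Tmem219 were not called.

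Of 5 listed proteases of the binding proteins and their inhibitors, the 4 that were tested were lower in YAP-SY CCA tumors, where 20.8% of all genes were called lower. Fibroblast and stellate cell markers were lower in 7 of 10 in the same tumors (median -1.78) and cholangiocyte markers in 7 of 9 (median -2). The part of either list in these changes was not tested. Pappa, the protease that cleaves IGFBP4, went from 1.31, 0.896 and 0.936 CPM to 0.272, 0.112 and 0.223 CPM, on only 4 to 12 counts per YAP-SY CCA tumor (-2.35, SE 0.48, edgeR quasi-likelihood adjusted p = 0.0025). Stc1 and Stc2, the stanniocalcins that inhibit PAPP-A, fell by 1.75 (SE 0.36, adjusted p = 0.0026) and 1.11 (SE 0.28, adjusted p = 0.00827) on the log2 scale. The serine protease Htra1 fell by 1.22 (SE 0.29, adjusted p = 0.00564). Both the protease of IGFBP4 and its inhibitors were thus lower where Igfbp4 was higher. SB1 cells, scaled apart, had means of 80.7 CPM for Htra1, 38.9 for Stc2, 2.58 for Pappa and 1.22 for Stc1. The YAP-S CCA tumor means were 13, 9.48, 1.05 and 6.14 CPM in the same order. The binding protein relative Igfbpl1 had 302, 231 and 100 counts with YAP-S and 6, 0 and 1 counts with YAP-SY (adjusted p = 0.000466), too few in the latter for a fold.

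In mixed tumors 0 of the 21 tested genes of this list were called, where the background was 0% of all genes. By the interaction term Ghr passed at 1.31 (edgeR quasi-likelihood adjusted p = 0.0282), Pappa at -2.16 (adjusted p = 0.0421) and Igfbpl1 (adjusted p = 0.00707). That term called 15.2% of all genes, so the list's share was near the background. The call for Ghr was lost without any 1 of 6 tumors (adjusted p = 0.0543 to 0.0796), namely YAP-S CCA 3 and 5, YAP-S mixed 2 and 9, YAP-SY CCA 6 and YAP-SY mixed 5. For Pappa it was lost without any 1 of 10 tumors, all but YAP-SY CCA 1 and YAP-SY mixed 3. Between the histologies, Igfbpl1 was called in YAP-SY, at 29, 25 and 153 counts in mixed tumors 3, 5 and 9 (adjusted p = 0.0346), and lost without YAP-SY CCA 6 or 8 or YAP-SY mixed 9 (adjusted p = 0.0627 to 0.102). In that comparison 2.9% of all genes were called.

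**Figure D3:**
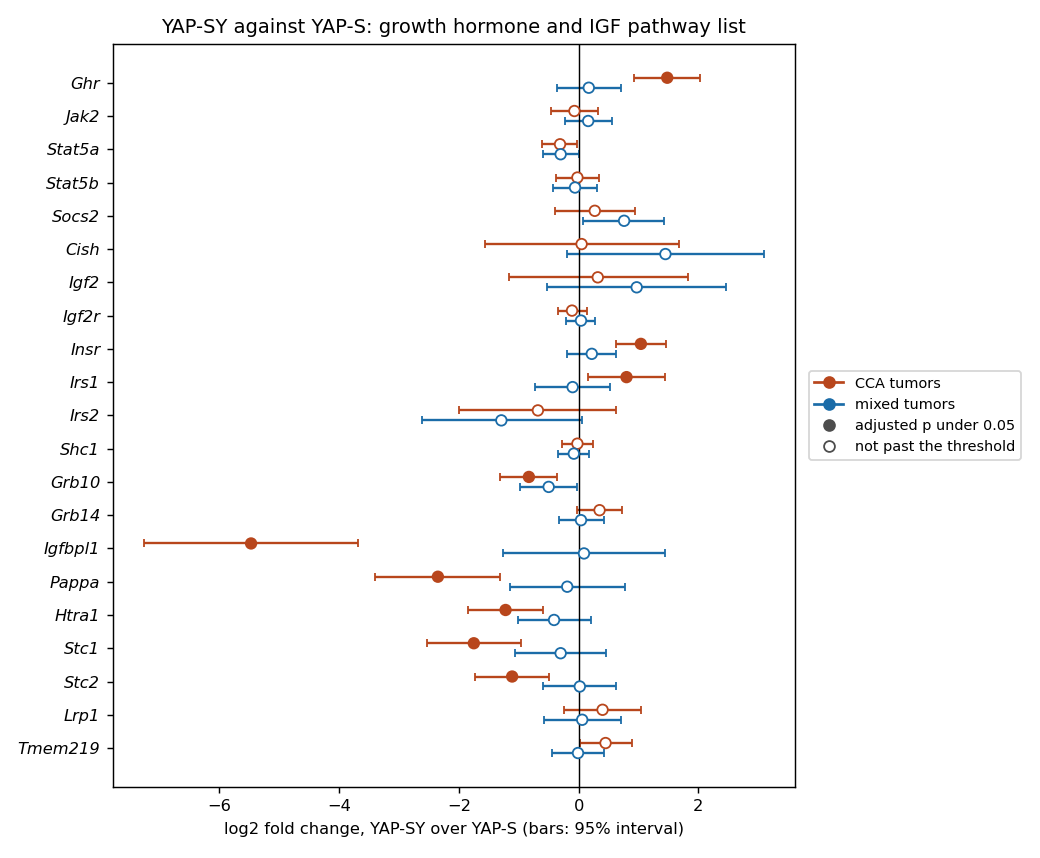
Log2 fold change of YAP-SY over YAP-S (x axis) for the 21 tested genes of the growth hormone and IGF list (y axis); bars are 95% intervals and filled points passed an adjusted p of 0.05. In CCA tumors Ghr, Insr and Irs1 are filled to the right of 0 and Grb10, Igfbpl1, Pappa, Htra1, Stc1 and Stc2 to the left, while no gene is filled in mixed tumors.

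The binding proteins were also compared with each other, as CPM per kilobase of exon, on the gene lengths of the deposited table. Their summed levels overlapped between groups, at 523 ± 159 in YAP-S CCA, 454 ± 72.4 in YAP-S mixed, 422 ± 99.5 in YAP-SY CCA and 378 ± 107 CPM per kb in YAP-SY mixed tumors (SD, n = 3 each). The make-up differed. Igfbp7 held 34.4% to 56.4% of the sum in YAP-S CCA tumors and 18.1% to 24.2% in YAP-SY CCA tumors, without overlap. Igfbp4 held 14.9% to 20.5% in the former and 30% to 40.2% in the latter, and replaced Igfbp7 as the largest mean share. In the mixed groups Igfbp7 held 31.1% to 39.2% and 27.4% to 49.7%, and Igfbp4 19.9% to 26.5% and 27.5% to 29.7%. Igfbp3 was a small share throughout, on average 6.73% with YAP-S and 2.4% with YAP-SY in CCA. Igfbp1 ranged from 6.33% to 35.8% within the YAP-S CCA group alone. These shares are descriptions of RNA and carry no test of their own.

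**Figure D4:**
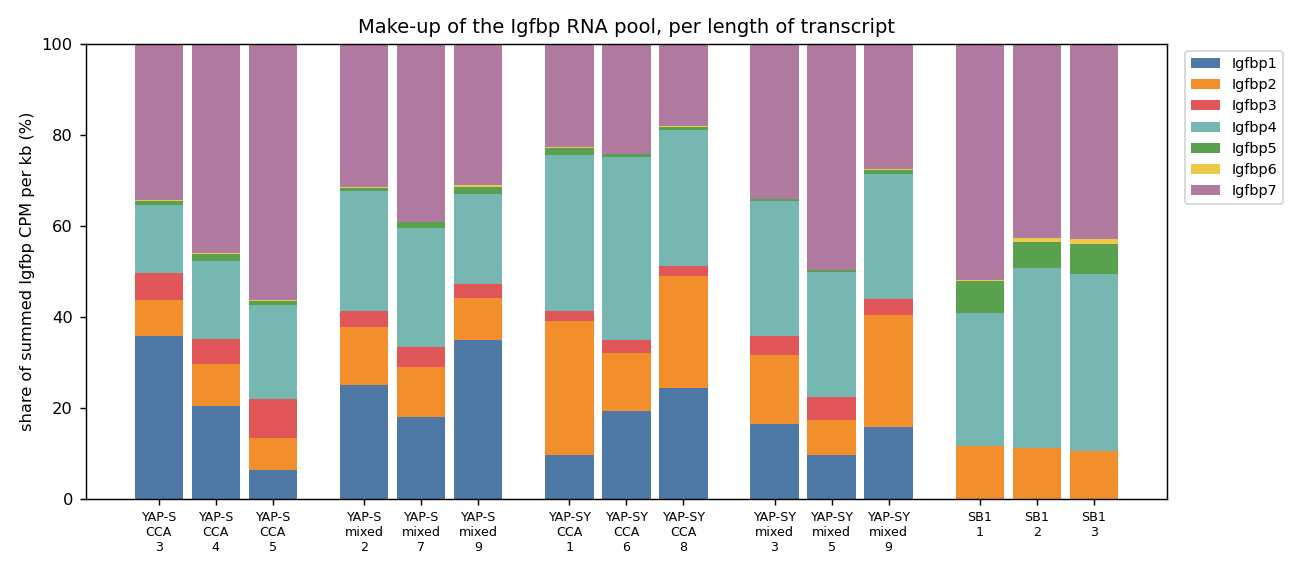
Share of each binding protein in the summed Igfbp level per kilobase (y axis, %), 1 bar per tumor or SB1 sample. From YAP-S to YAP-SY CCA tumors Igfbp7 shrinks from a mean of 45.6% to 21.7% and Igfbp4 grows from 17.5% to 34.8%.

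The members include 2 pairs that are chromosomal neighbours with no listed gene between them. Igfbp1 (chr11:7197782-7202546, plus strand) and Igfbp3 (chr11:7206086-7213923, minus strand) lie tail to tail with 3539 bases between them. Igfbp2 (chr1:72824503-72852474, plus strand) and Igfbp5 (chr1:72857932-72874884, minus strand) lie likewise with a gap of 5457 bases. Over the 12 tumors the log2 CPM of Igfbp1 and Igfbp3 correlated by 0.27 and that of Igfbp2 and Igfbp5 by 0.35. Members on different chromosomes were closer: Igf1 (chr10:87858265-87937042) correlated by -0.93 with Igfbp3 and -0.96 with Igfbp7 (chr5:77349240-77408045), and Igfbp3 with Igfbp7 by 0.95. Igfals and Igfbp2, both low in YAP-SY CCA tumor 6, correlated by 0.87. These Pearson values describe 12 tumors that share their library scaling and fall into groups, and they carry no test.

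By the same measure, over 10568 genes with a mean of at least 5 CPM, the genes closest to Igf1 were Deptor (r = 0.994), Nmd3 (0.993) and Serpind1 (0.993). Closest to Igfbp3 were Ddit4 (0.974), Unc5b (0.973) and Pdgfrb (0.97), the last a gene of the fibroblast and stellate cell list. Igfbp7 was most like Synpo (0.992), Spns3 (0.99) and Tctn3 (0.989), and Igfbp4 most like Cox6c (0.992), Iah1 (0.984) and Sirt3 (0.978). Sgk1 (0.916), Arl4d (0.883) and Ppp1r3g (0.859) were nearest to Igfbp1, with values lower than those of Igf1, Igfbp3, Igfbp4 and Igfbp7. Asl (0.979), Aspdh (0.977) and Tfr2 (0.968) were nearest to Igfbp2, and Dolpp1 (0.983), Neu1 (0.961) and Bckdha (0.957) to Igfals. For Igf1r they were Smim1 (0.93), Fgd5 (0.927) and Pbx2 (0.926), for Igfbp5 Tmem204 (0.899), Hspa1b (0.894) and Npm3 (0.894), and for Igfbp6 Nudt22 (0.942), Nudt8 (0.932) and Shb (0.903).

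SB1 cells, read in a table of their own and scaled apart from the tumors, are described beside them without a test. Their labels and the cholangiocyte list were set against each other first: the list summed to 3140 to 3570 CPM, with Krt19 at 1100, 1400 and 1780 CPM in samples 1, 2 and 3 but Epcam at 0.197, 0.396 and 0.114 CPM. The hepatocyte list summed to 697 to 1210 CPM, most of it Alb (1110, 615 and 610 CPM). Endothelial markers summed to 0.819 to 1.33 CPM, with Clec4g at 0 in all 3 samples, and those for T cells and B cells to 1.51 to 3.79 and 0.119 to 0.379 CPM. Macrophage and Kupffer cell markers summed to 40.2 to 70.2 CPM, most of it Csf1r (61.3, 36.2 and 65.8 CPM), with Cd68 at 3.41, 4.04 and 4.39 CPM and the other 5 of the 7 genes at 0 in all 3. Fibroblast and stellate cell markers summed to 460 to 614 CPM. Most of it was Dcn (192, 220 and 322 CPM), Col1a1 (98.4, 113 and 138), Col3a1 (91.3, 56.7 and 67.6) and Pdgfrb (62.7, 70.1 and 58.4). Lum and Lrat were at 0 in all 3.

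Igf1, Igfals, Igfbp1 and Igfbp3 were lower in every SB1 sample than in every tumor. Igf1 stood at 7.83, 3.92 and 3.3 CPM, where no tumor was below 231 CPM. Igfals had 1, 0 and 6 counts and Igfbp1 had 0, 0 and 1 count, where 3 counts correspond to 0.0983, 0.119 and 0.114 CPM, a floor that covers counting error only. Igfbp3 was at 0.426, 0.555 and 0.455 CPM, on 12 to 14 counts, where the tumors held 25.1 to 128 CPM. Igf2, the other ligand, went the other way, at 30.9, 34.3 and 41.4 CPM where the tumors held 0.291 to 2.02 CPM, on 9 to 259 counts.

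The receptor was also above the tumors' range. Igf1r stood at 63.2, 65.6 and 75.3 CPM (mean 68.1 ± 6.38, SD, n = 3), where tumors held 0.865 to 4.79 CPM. Igfbp5 stood at 195, 144 and 174 CPM against 8.12 to 53 CPM in tumors, and Igfbp6 at 0.852, 3.8 and 5.26 CPM, on 26 to 139 counts. Igfbp2, at 97.4, 86 and 86.3 CPM, Igfbp4, at 590, 724 and 761 CPM, and Igfbp7, at 288, 215 and 231 CPM, were within or near the tumors' ranges. Per kilobase, Igfbp7 and Igfbp4 held 45.9% and 35.9% of the SB1 sum of 439 ± 21.2 CPM per kb, while Igfbp3 held 0.0351%. Igfbp3 and Igfbp7, which fell together in YAP-SY CCA tumors, were thus apart in SB1 cells, where Igfbp3 had 12 to 14 counts and Igfbp7 5431 to 8793.

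**Figure D5:**
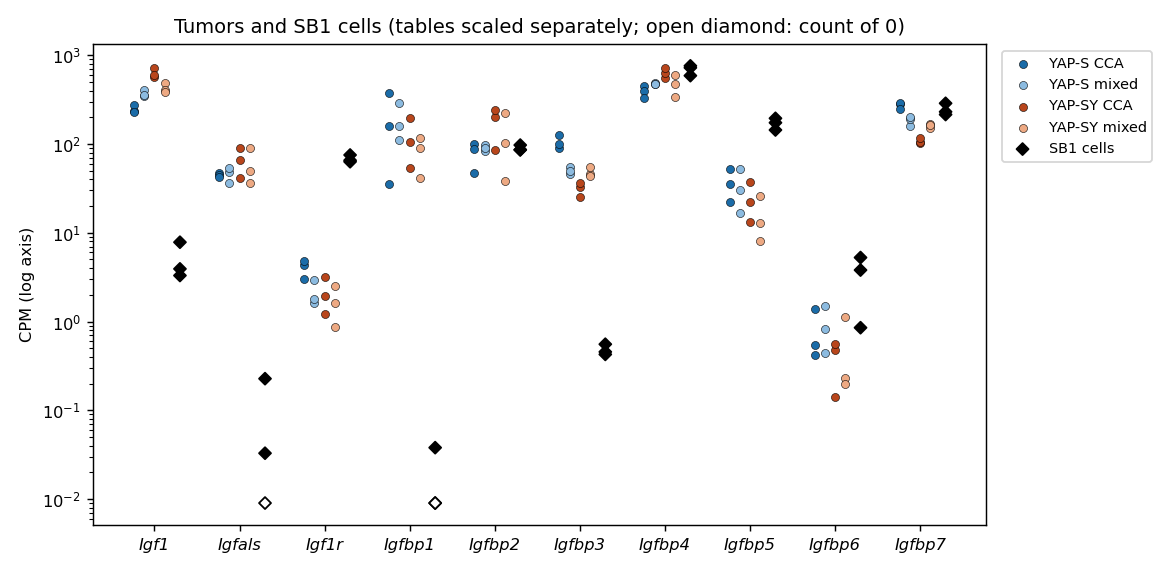
CPM on a log axis (y axis) of each member (x axis) in single tumors, coloured by group, and in the 3 SB1 samples (diamonds; open diamonds are counts of 0 placed at the foot of the axis). The 2 tables were scaled separately. Igf1r and Igfbp5 are higher in every SB1 sample than in every tumor, and Igf1, Igfals, Igfbp1 and Igfbp3 are lower.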

How the data were processed

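RNA was taken from tumor nodules and cell lines and libraries were made with a TruSeq mRNA kit, per the labels' protocols. The tumor values are whole-number counts per gene that the authors deposited as corrected; what was corrected, and how, is not given in the sources used here. The deposited SB1 values are raw counts in a table of their own. STAR and mm10 are named in the submitters' processing notes without versions; the annotation release and counting tool are not given in the sources used here. Another 3 sample columns of the SB1 table carry names found in no label and stayed unused; SY1 is not analysed here.

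Among the tumor data's symbols 27 had turned into dates and were restored by identifier. Genes were filtered with filterByExpr by group, libraries were scaled by TMM, and 1 fit with a term per group over 12 tumors was tested with glmQLFTest in edgeR 4.0.16 (R 4.3.3). P-values were adjusted by Benjamini-Hochberg over 18318 genes. Comparisons were YAP-SY against YAP-S in each histology, the difference of these effects, and CCA against mixed tumors in each model. Intervals are 95% intervals of the fit, and log2 CPM used a prior count of 1. The fit was tested on simulated data for YAP-SY against YAP-S in CCA tumors only, and its interaction term was not. Per-kilobase levels use the deposited table's lengths. For Igf1r and Igfals these were 4489 and 2111 bases, where the exons of GENCODE M21 cover 16791 and 3167, so their levels are not compared per length.

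All 10 members, pathway genes past the threshold and the 3 genes nearest each member were named. The members and lists were chosen with earlier results of these data known, and the motifs with the sequences known. Alternatives used limma 3.58.1 and DESeq2 1.42.0.

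Same-numbered tumors of the 2 models (3, 5 and 9) had deviations from their group means that correlated by 0.179, 0.349 and 0.09. The other 33 pairs correlated by -0.313 to 0.29, with a median of -0.033, so that 0.349 lay above all of them. The numbers were not taken to pair tumors.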

Additional observations from a re-analysis of the deposited data

Results flagged for a closer look

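For 3 members the effect of YAP-SY differed between CCA and mixed tumors by the interaction term of the fit (edgeR quasi-likelihood, Benjamini-Hochberg adjustment over all genes tested). For Igf1 the log2 effect was larger in CCA by 1.16, for Igfbp3 the difference was -1.69 and for Igfbp7 it was -1.14. In CCA tumors all 3 genes had groups without overlap (3 of 3 tumors each), and in mixed tumors all 3 had groups that overlapped. Over all genes tested, groups did not overlap for 52.6% in CCA tumors and for 8.35% in mixed tumors. Each stayed past the threshold under all 20 alternatives run, with ranges of 0.646 to 1.26 for Igf1, -2.2 to -1.52 for Igfbp3 and -1.65 to -0.937 for Igfbp7. By the same term 15.2% of all genes tested differed. Hepatocyte, fibroblast, cholangiocyte and T cell markers also included genes that differed by this term, and their part in these differences was not tested.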

How the results depend on the processing

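In CCA tumors Igf1, Igfbp3 and Igfbp7 passed the threshold in all 15 alternatives run, with ranges of 0.782 to 1.43, -2.33 to -1.61 and -1.9 to -1.23; the counts of members and of list genes called were 3 to 5 and 8 to 9 when each tumor was left out. Igf1r passed in 4 of the 15, Igfbp2 in 3 and Igfals in 1 (limma-voom with quality weights, 0.817). Without TMM factors the median over all genes in CCA was -0.56, with 760 genes higher and 8064 lower against 3358 and 3813, and for the difference 150 higher and 4180 lower against 920 and 1868. In mixed tumors the members called were 0 in every alternative run. For CCA against mixed tumors in YAP-S, 0 members became 1 (no count filter, DESeq2 size factors, upper quartile factors), 2 (library size alone) or 3 (DESeq2 Wald test, voom with quality weights, only the groups compared, voom without weights), and 0 list genes became 1 (no filter, library size alone), 2 (Wald test, only the groups compared) or 5 (quality weights). In YAP-SY, 1 member became 2 (library size alone, upper quartile), 3 (Wald test) or 0 (quality weights, only the groups compared, voom without weights; 0 to 0 leaving out each tumor), and 1 list gene became 3 (library size alone), 2 (Wald test) or 0 (the same voom and group settings; 0 to 1 leaving out each tumor). For the difference between histologies 3 members became 3 to 4 and 3 list genes 1 to 4 leaving out each tumor, and 3 list genes became 6 (library size alone, Wald test) or 5 (quality weights). The cause of these changes was not tested.

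With the tumor number as a replicate block (random effect, correlation 0.22) members called were 5 in CCA (Igf1r at -1.14 added), 3 in YAP-S between histologies and 0 in YAP-SY, where the list counts were 1 and 0. The groups compared share at most 1 number, so the block pairs few tumors.

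Only values that had not passed changed sign. With library size alone these were Igfals (-0.288 for the difference, 0.174 in YAP-S and -0.114 in YAP-SY between histologies), and Igfbp2 and Igfbp6 in YAP-S (0.0021 and 0.0223). With quality weights they were Igfbp1 (0.707 in CCA, -1.09 in YAP-S), Igf1r (0.0848) and Igfbp6 (0.532) for the difference, Igfals and Igfbp5 in YAP-S (0.0185 and -0.0622) and Igfbp6 in YAP-SY (0.405). In YAP-S the block gave 0.075 for Igfals, -0.447 for Igfbp1 and 0.25 for Igfbp6, and voom without weights, chosen after seeing the data, -0.536 for Igfbp1 and 0.0763 for Igfbp6. When each tumor was left out in turn, these values ranged across 0. For YAP-SY against YAP-S in CCA, Igfbp1 ranged from -1.26 to 0.267. For the same in mixed tumors, Igfbp4 ranged from -0.225 to 0.175, Igfals ranged from -0.094 to 0.621 and Igfbp2 ranged from -0.347 to 0.856. For the difference, Igfbp6 ranged from -0.79 to 1.06, Igfbp1 ranged from -0.107 to 1.43, Igfbp5 ranged from -0.00941 to 1.1 and Igfals ranged from -0.103 to 0.656. For CCA against mixed in YAP-S, Igfbp1 ranged from -0.914 to 0.541, Igfbp5 ranged from -0.218 to 0.641, Igfbp6 ranged from -0.881 to 0.341, Igfals ranged from -0.169 to 0.0805 and Igfbp2 ranged from -0.4 to 0.073. For CCA against mixed in YAP-SY, Igf1r ranged from -0.115 to 0.719, Igfals ranged from -0.144 to 0.614, Igfbp1 ranged from -0.075 to 0.863 and Igfbp6 ranged from -0.857 to 0.866.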
